A study of Mus musculus with 6 samples.

Results

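ATF4, the transcription factor that carries out the integrated stress response, and the amino acid transporters and enzymes it is known for were followed here as a set of 32 genes in neural stem cells with an altered histone H3.3 or without Cbfa2t2. The members were picked out by gene symbol from a list drawn up with earlier results of these data known. All 32 were found in both deposited expression tables, among 14667 genes present in at least 1 table. The cells are NE-4C, a mouse neural stem cell line that lacks p53. In every line used here H3f3a, a gene that encodes the histone variant H3.3, was knocked out and an HA-tagged H3.3 was stably expressed from a transgene, so the controls carry that deletion and a transgene as well. H3.3WT cells express the tagged wild-type protein. Cbfa2t2_KO cells express the same wild-type protein after an additional knockout of Cbfa2t2, which encodes a transcriptional corepressor. H3.3K27M cells express tagged H3.3 with methionine in place of lysine 27, the substitution known from diffuse midline glioma. Each of the 3 groups has 2 poly(A) RNA-seq libraries. The labels give neither the number of clones behind a line nor the promoter of the transgene, and nothing in them says that both libraries of a group are independent cultures. The p-values therefore describe the spread between these particular samples, and that spread may be purely technical. All lines are described as grown in the same medium, with non-essential amino acids, 4 mM L-glutamine and 10% fetal bovine serum.

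When amino acids run short, when unfolded proteins build up in the endoplasmic reticulum or when haem is lacking, eIF2 kinases phosphorylate the translation factor eIF2. General translation then slows, while the Atf4 message, held back by short upstream reading frames under normal conditions, is translated more. ATF4 pairs with C/EBP proteins and binds composite C/EBP-ATF elements in genes for amino acid uptake and synthesis, tRNA charging and redox balance, and in genes for a second tier of regulators such as Ddit3, Atf3 and Trib3. Because ATF4 is controlled mainly at translation and protein turnover, its mRNA level is an incomplete measure of its activity, and no protein was measured here.

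The upstream sequences of a few members are shown first, because they carry the element that ATF4 is known to bind. Promoter windows of 300 bases, from 250 before to 50 after the annotated start, came from RefSeq on GRCm38.p6 and were available for 27 of the 32 genes in 38 windows. Slc7a3, Slc7a5, Slc38a1, Slc1a5 and Cth had no entry. The core TTGCATCA, searched on both strands, was found in 8 of the 27 genes (29.6%) against 1.03% of the 27025 genes of the whole promoter table. The looser form TGATGNAA, which includes every core match, was found in 10 of 27 (37%) against 4.51%. The genes with a core match were Atf3, Nupr1, Chac1, Vldlr, Slc7a7, Slc7a11, Slc1a4 and Pycr1, and Asns and Trib3 had the looser form alone. The set was assembled from known ATF4 targets, so this excess describes the set. A match is a stretch of letters, not a measured binding site, and elements farther from the start lie outside these windows.

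The 250 bases before the start are given for 4 members with a core match and for Asns, 5′ to 3′ on the strand of the gene, with matches to either form in capitals. They lie on GRCm38.p6 at chr1:191183334-191183583 (Atf3, reverse strand), chr7:126625471-126625720 (Nupr1, reverse strand), chr2:119350992-119351241 (Chac1, forward strand), chr3:50443614-50443863 (Slc7a11, reverse strand) and chr6:7693210-7693459 (Asns, reverse strand).
Atf3: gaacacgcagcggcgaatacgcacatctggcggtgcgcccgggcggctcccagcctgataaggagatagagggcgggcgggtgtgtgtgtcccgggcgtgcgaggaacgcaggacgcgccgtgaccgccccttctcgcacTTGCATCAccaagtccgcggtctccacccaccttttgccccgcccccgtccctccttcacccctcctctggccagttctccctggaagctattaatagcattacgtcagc
Nupr1: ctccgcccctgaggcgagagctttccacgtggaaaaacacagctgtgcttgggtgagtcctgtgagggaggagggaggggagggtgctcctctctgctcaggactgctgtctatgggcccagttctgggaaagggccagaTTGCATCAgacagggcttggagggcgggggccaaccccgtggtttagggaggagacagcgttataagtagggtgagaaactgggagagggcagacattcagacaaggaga
Chac1: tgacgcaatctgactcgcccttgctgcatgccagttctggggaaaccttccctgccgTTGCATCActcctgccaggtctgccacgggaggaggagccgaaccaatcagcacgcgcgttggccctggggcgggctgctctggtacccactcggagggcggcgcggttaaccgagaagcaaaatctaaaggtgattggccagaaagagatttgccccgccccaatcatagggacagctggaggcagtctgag
Slc7a11: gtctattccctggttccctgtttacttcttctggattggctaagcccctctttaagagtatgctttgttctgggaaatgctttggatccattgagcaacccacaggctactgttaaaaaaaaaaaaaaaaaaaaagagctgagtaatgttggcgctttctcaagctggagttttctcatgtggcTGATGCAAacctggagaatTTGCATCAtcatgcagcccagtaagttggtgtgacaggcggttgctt
Asns: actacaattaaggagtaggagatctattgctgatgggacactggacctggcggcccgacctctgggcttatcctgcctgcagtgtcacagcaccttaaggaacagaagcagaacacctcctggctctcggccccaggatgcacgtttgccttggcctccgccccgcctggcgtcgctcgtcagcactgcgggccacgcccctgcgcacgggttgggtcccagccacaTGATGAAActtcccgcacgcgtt

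For the other genes with a match, the 8 matched bases are shown in capitals with 3 bases on either side.
Slc1a4: gcgTTGCATCAtct
Pycr1: gtaTGATGCAAtgc
Vldlr: tagTTGCATCAgcg
Slc7a7: agcTGATGCAAcag
Trib3: ggtTTACATCAgcc

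The matches in Atf3 and Nupr1 began 110 bases before the start, that in Pycr1 103 bases before it, those in Chac1 and Vldlr 193 and 200 bases before it, and the 2 in Slc7a11 66 and 47 bases before it. In Slc1a4 and at the first of the Slc7a7 starts the core match ran across the start itself. Slc7a7 also had a match to the looser form alone, TGATGAAA, 141 bases before that start. The match in Trib3 lay after the start, from transcribed base 15. Of the 10 genes with a match, Atf3, Nupr1, Chac1, Slc1a4 and Trib3 fell in both lines. Slc7a11 rose in H3.3K27M (0.64, adjusted p = 0.035) and was not called in Cbfa2t2_KO, and Pycr1, Vldlr, Slc7a7 and Asns were called in neither line. Among members whose windows held no match, Atf5, Cebpb, Cebpg, Sesn2, Stc2 and Slc3a2 also fell in both lines. Of all genes tested, 21.5% fell in Cbfa2t2_KO and 17.8% in H3.3K27M. A link between a match and a change was not tested.

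**Figure D1:**
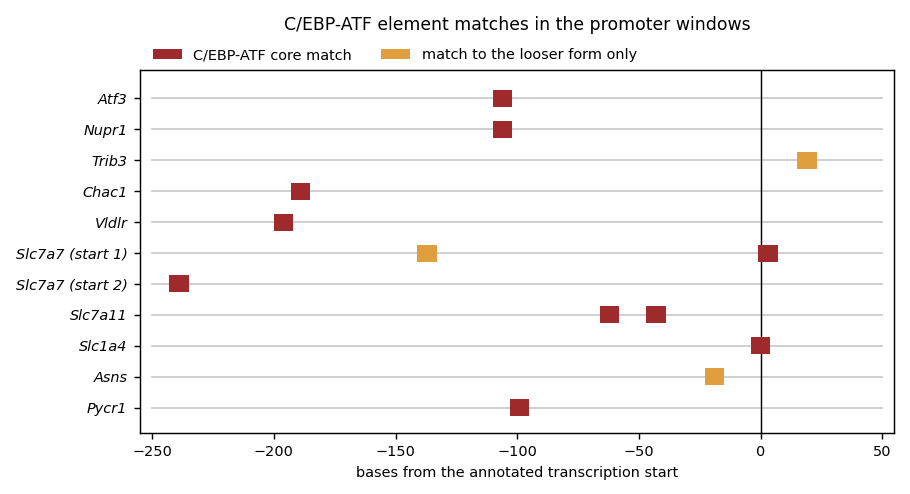
Positions of C/EBP-ATF element matches in the promoter windows of the 10 genes that hold one, drawn in bases from the annotated start, with core matches in red and matches to the looser form alone in yellow. Each grey line is a 300-base window, and Slc7a11 has 2 core matches within 70 bases before its start.

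Values are FPKM, fragments normalised to transcript length and to the mapped fragments of the library, as the authors deposited them, and this unit is per length, so levels of different genes can be compared. The 14082 genes in both tables sum to between 363536 and 417267 FPKM per library. No counts were among the values, so the depth of each library is unknown and no counting interval can be given. Differences are on the scale of log2(FPKM + 1), with their standard error, and passed the test where the adjusted p was under 0.05 (limma, Benjamini-Hochberg over all genes tested). This scale understates changes of low genes. The median over all genes tested was -0.11 in Cbfa2t2_KO and -0.12 in H3.3K27M against H3.3WT, and changes are to be read relative to that shift. Cbfa2t2 itself was low in every library (1.38 and 1.35 FPKM in H3.3WT, 1.02 and 0.769 in Cbfa2t2_KO and 2.02 and 0.855 in H3.3K27M) and did not differ past the test in Cbfa2t2_KO (adjusted p = 0.153), so its RNA level does not check that label. H3f3a was detected in all libraries although it is knocked out in every line, and was lower in Cbfa2t2_KO and H3.3K27M than in H3.3WT (log2 changes -1.05 and -1.09). A value per gene does not separate reads of the tagged transgene from reads of the knocked-out gene. The neural stem markers Nes and Sox2 were present (35.2 and 38.8, and 30.9 and 34.4 FPKM in H3.3WT), Pax6 was at most 0.926 FPKM and Sox1 was in neither table, which lists only genes reaching 0.5 FPKM in some library. Nes was lower in Cbfa2t2_KO and H3.3K27M (-0.80 and -1.20), and Sox2 was lower in Cbfa2t2_KO (-1.5). In bulk RNA, fewer cells of a type and less RNA per cell cannot be told apart.

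Most regulators and stress effectors of the ATF4 set were lower than in H3.3WT in both lines. Most of its amino acid transporters were lower in Cbfa2t2_KO and fewer were called in H3.3K27M, and the amino acid synthesis enzymes mostly did not pass in either line. In Cbfa2t2_KO 18 of the 32 genes (56.2%) were lower, 2 (6.25%) were higher and 12 did not pass, where 34.6% of all genes were called, 21.5% lower and 13.1% higher. In H3.3K27M 14 of 32 (43.8%) were lower, 2 (6.25%) higher and 16 did not pass, where 26.2% of all genes were called, 17.8% lower and 8.42% higher. With a log2 change of at least 1 asked for as well, 11 members were lower in Cbfa2t2_KO and 8 in H3.3K27M, where 5.94% and 6.13% of all genes were. The median log2 change of the 32 genes was -0.60 in Cbfa2t2_KO and -0.50 in H3.3K27M, beside the medians of -0.11 and -0.12 over all genes. Because the members were chosen with earlier results of these data known, these shares and medians describe the set and do not test it. Both comparisons use the same 2 H3.3WT libraries, so a deviation of those libraries would appear in both, and they are not independent of each other. The 32 genes together made up 0.845% and 0.817% of the summed FPKM of the shared genes in the H3.3WT libraries, 0.56% and 0.561% in Cbfa2t2_KO, and 0.627% and 0.574% in H3.3K27M. The values did not overlap between Cbfa2t2_KO and H3.3WT for 23 lower and 6 higher members, where 42% and 28.5% of all genes did not overlap in these directions. For H3.3K27M 17 members were lower and 6 higher without overlap, where the shares of all genes were 41.3% and 25.1%.

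The count of lower members depended on scaling and, as the last section gives, on single libraries. No member called against H3.3WT changed sign under the alternatives tried. Median-of-ratios scaling, which brings the median of all genes to 0.00 in Cbfa2t2_KO and 0.01 in H3.3K27M, left 16 lower and 3 higher in Cbfa2t2_KO and 12 lower and 3 higher in H3.3K27M. Among all genes tested it gave 2028 of 11612 lower and 2096 higher in Cbfa2t2_KO. In H3.3K27M it gave 1421 of 11604 lower and 1392 higher. Over all genes the same scaling raised the share of calls that were higher from 37.9% to 50.8% in Cbfa2t2_KO and from 32.1% to 49.5% in H3.3K27M. Rescaling to TPM lowered it to 30.4% and 22.7%, with 19 lower and 2 higher members in Cbfa2t2_KO and 17 lower and 1 higher in H3.3K27M. Of the 11637 genes then tested in each comparison, 2721 were lower and 1191 higher in Cbfa2t2_KO, and 2320 lower and 683 higher in H3.3K27M. Without Cbfa2t2_KO replicate 2 the median change of the members in that line was -0.52, beside -0.075 over all genes. Without H3.3WT replicate 1 or 2 the median change of the members in H3.3K27M was -0.43 and -0.55, beside -0.14 and -0.09 over all genes.

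**Figure D2:**
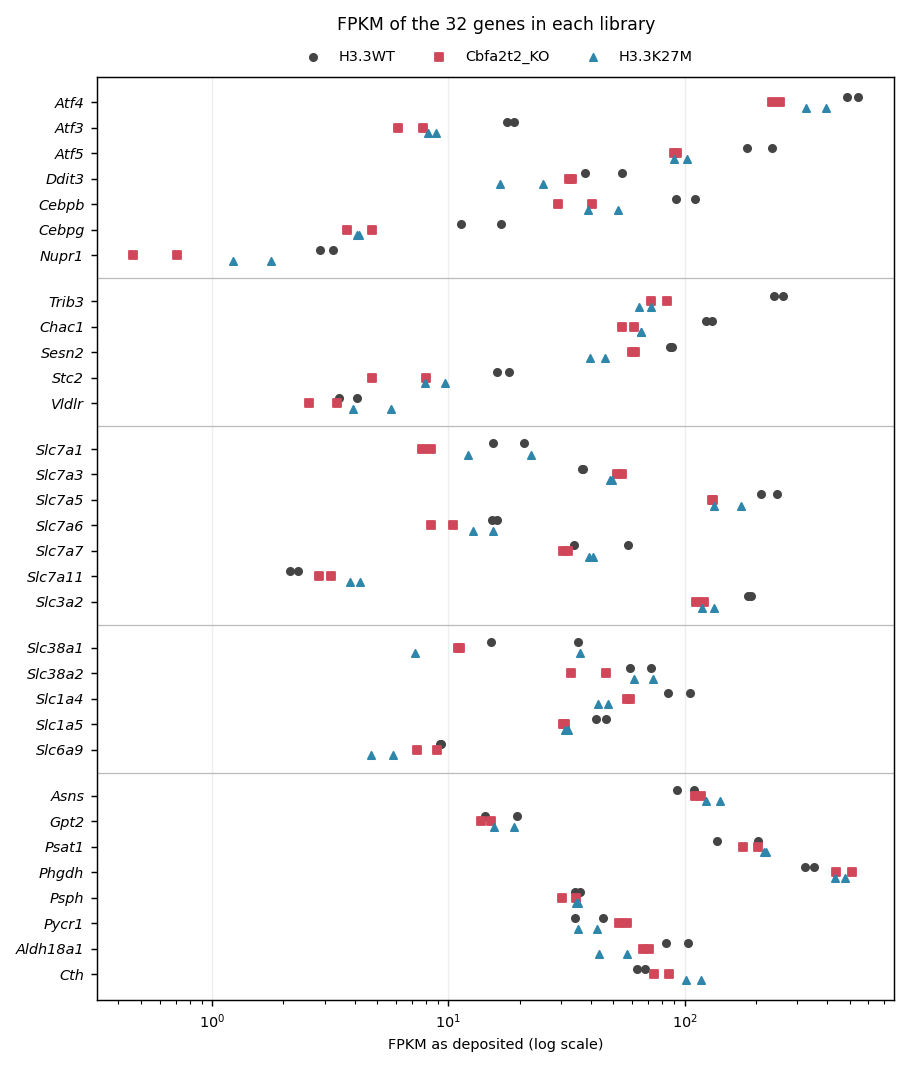
FPKM of the 32 genes in each of the 6 libraries on a log axis, grouped from top to bottom as transcription factors, stress effectors and feedback, Slc7 transporters with Slc3a2, neutral amino acid transporters, and amino acid synthesis. The H3.3WT points of the top 2 groups lie to the right of the Cbfa2t2_KO points in all 12 rows, while in the bottom group they overlap with them or lie to the left for most genes.

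Among the transcription factors, Atf4 (forward strand of chromosome 15 on GRCm38, from 80255184 to 80257541) had the highest H3.3WT level of the set, with 490.1 and 544.0 FPKM in H3.3WT, 234.1 and 253.6 in Cbfa2t2_KO and 326.4 and 395.8 in H3.3K27M. The Cbfa2t2_KO values lay below both other groups, and the H3.3K27M values lay between. Atf4 fell in Cbfa2t2_KO to 0.472 of the H3.3WT mean (log2 change -1.08 ± 0.14, adjusted p = 0.00165), and its difference in H3.3K27M, a ratio of 0.698, did not pass (log2 change -0.52 ± 0.20, adjusted p = 0.0843). That second difference did pass after rescaling to TPM (adjusted p = 0.0136), after quantile normalization (0.00625) and in a fit of all 6 libraries (0.0474).

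Atf5, a close relative of Atf4 whose translation is controlled in a like manner, had 183.5 and 235.2 FPKM in H3.3WT, 90 and 93 in Cbfa2t2_KO and 90 and 102.9 in H3.3K27M, so that both lines stood at less than the lowest H3.3WT value. It fell in Cbfa2t2_KO (log2 change -1.18 ± 0.16, adjusted p = 0.00168) and in H3.3K27M (log2 change -1.10 ± 0.19, adjusted p = 0.00565). Atf3, a stress-induced repressor of the same bZIP class, had 17.7 and 19 FPKM in H3.3WT, 6.12 and 7.82 in Cbfa2t2_KO and 8.22 and 8.86 in H3.3K27M. No value of either line reached the H3.3WT range, and Atf3 fell in both (log2 change -1.29 ± 0.17, adjusted p = 0.00164, and log2 change -1.02 ± 0.17, adjusted p = 0.0051).

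C/EBP factors are heterodimer partners of ATF4, and Cebpb and Cebpg fell in both lines. Cebpb (chromosome 2, 167688915 to 167690418, forward strand, a gene of 1 exon) had 91.6 and 110.4 FPKM in H3.3WT, 29 and 40.5 in Cbfa2t2_KO and 38.9 and 52.3 in H3.3K27M. It fell by 1.53 on the log2 scale in Cbfa2t2_KO and by 1.14 in H3.3K27M (adjusted p = 0.0013 and 0.00573). Cebpg, the partner of ATF4 that lacks a transactivation domain of its own, had 11.3 and 16.7 FPKM in H3.3WT, 4.73 and 3.7 in Cbfa2t2_KO and 4.1 and 4.16 in H3.3K27M. Its levels in the lines were 0.301 and 0.295 of the H3.3WT mean, and it fell in both (log2 change -1.51 ± 0.22, adjusted p = 0.00223, and log2 change -1.52 ± 0.22, adjusted p = 0.00296).

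Ddit3, which encodes the pro-apoptotic factor CHOP, had 37.9 and 54.5 FPKM in H3.3WT, 32.5 and 33.4 in Cbfa2t2_KO and 16.6 and 25.1 in H3.3K27M, so H3.3K27M was the lowest group. It fell in H3.3K27M (log2 change -1.12 ± 0.24, adjusted p = 0.0129), and the difference in Cbfa2t2_KO did not pass (log2 change -0.46 ± 0.18, adjusted p = 0.0875), although it did without H3.3WT replicate 1 (-0.71, adjusted p = 0.0194) and with trends on GC content and length removed (adjusted p = 0.0355). Nupr1, a small stress-induced chromatin protein, was low everywhere, with 2.87 and 3.23 FPKM in H3.3WT, 0.707 and 0.462 in Cbfa2t2_KO and 1.22 and 1.77 in H3.3K27M. It fell in both lines (log2 change -1.35 ± 0.17, adjusted p = 0.00147 in Cbfa2t2_KO, and log2 change -0.70 ± 0.20, adjusted p = 0.0312 in H3.3K27M). The pseudocount of 1 shrinks these changes, since the Cbfa2t2_KO mean was 0.192 of that of H3.3WT.

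All 7 transcription factors had lower values in both lines than in H3.3WT without overlap, and 6 of 7 (85.7%) passed in each line. Of all genes, 42% in Cbfa2t2_KO and 41.3% in H3.3K27M were lower without overlap, and 21.5% and 17.8% were called lower. The calls in Cbfa2t2_KO held without any 1 library. In H3.3K27M those of Atf5 and Cebpb were lost without H3.3WT replicate 2 (adjusted p = 0.0587 and 0.0538), that of Ddit3 without H3.3WT replicate 2 or H3.3K27M replicate 1 (0.0996 and 0.0522), and that of Nupr1 without H3.3WT replicate 1, H3.3WT replicate 2 or H3.3K27M replicate 1 (0.1, 0.151 and 0.0981). The call of Nupr1 was also lost with median-of-ratios scaling (adjusted p = 0.0539) and quantile normalization (0.0657).

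Other values moved with these genes. Of 12 tested immediate early and heat shock genes, a class that responds to serum, handling and stress and to which Atf3 is often assigned, 7 (58.3%) fell and 1 (8.33%) rose in Cbfa2t2_KO (median -0.91), and 7 (58.3%) fell and 2 (16.7%) rose in H3.3K27M (median -0.82). Of all genes 21.5% fell and 13.1% rose in Cbfa2t2_KO, and 17.8% and 8.42% in H3.3K27M. Egr1, the largest fall among them, had 173.2 and 273.5 FPKM in H3.3WT, 7.55 and 7.59 in Cbfa2t2_KO and 5.97 and 6.43 in H3.3K27M. The part of this class in the lower regulators was not tested. Many markers of other cell types were low or missing. Of 6 microglial and leukocyte markers 1, Cd68, was in the tables (1.24 and 1.18 FPKM in H3.3WT, 3.82 and 4.37 in Cbfa2t2_KO, 2.53 and 2.6 in H3.3K27M), and Ptprc, Cx3cr1, Csf1r, Aif1 and Itgam were in neither. Of 8 neuronal markers 5 were present, and the 4 tested had summed FPKM of 78.7 and 77 in H3.3WT, 134.4 and 150.2 in Cbfa2t2_KO and 76.7 and 81.4 in H3.3K27M, and Map2, Dcx and Neurod1 were in neither table. Of the 4 tested, Tubb3 alone was called in Cbfa2t2_KO, where it rose (0.93), and Rbfox3 (-0.74) and Elavl3 (-0.56) fell in H3.3K27M. Of 6 astrocyte markers 3 were present, with sums of 33.3 and 26.2, 41.3 and 25.6, and 61.4 and 49.2 FPKM in the same order, and Gfap, Aqp4 and S100b were in neither. Slc1a3 fell in both lines (-1.26 and -0.63), Aldh1l1 rose in both (1.09 and 1.04) and Gja1 rose in H3.3K27M (1.38). Of 7 mesenchymal markers 6 were present, and those tested summed to at most 11.3 FPKM in a library. Col3a1 rose (0.959 and 0.895) and Pdgfrb fell (-1.021 and -0.775) in both lines, and in Cbfa2t2_KO Col1a1 rose (1.09) and Acta2 fell (-1.07). In the neural stem list, 4 of 7 tested markers were lower and 2 higher in Cbfa2t2_KO and 3 lower and 2 higher in H3.3K27M. Those lower included Sox2 in Cbfa2t2_KO and Nes in both lines, and the 2 higher were Vim (1.19 and 1.68) and Prom1 (0.91 and 0.99). The part of these markers in the results was not tested. Protein-coding genes with 1 to 3 exons had medians of -0.39 in Cbfa2t2_KO and -0.44 in H3.3K27M, those with 4 to 5 exons -0.25 in each, and those with at least 6 exons -0.07 and -0.10. The 4 members with 1 to 3 exons (Atf5, Cebpb, Cebpg and Chac1) had medians of -1.34 and -1.12, the 6 with 4 to 5 exons (Atf3, Atf4, Ddit3, Nupr1, Stc2 and Trib3) -1.30 and -0.95, and the 22 with at least 6 exons -0.35 and -0.07. With trends on GC content, length and exon number removed from each library, 20 members were lower and 2 higher in Cbfa2t2_KO, and 14 lower and 2 higher in H3.3K27M. Among all genes then tested, 3088 of 11614 were lower and 1762 higher in Cbfa2t2_KO, and 2520 of 11611 lower and 1168 higher in H3.3K27M.

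The strand of the libraries is not stated, so reads of genes that overlap on opposite strands cannot be told apart. Cebpb shares 312 exon bases, 20.7% of its exon sequence, with Tmem189 on the other strand, and Tmem189 was also lower in both lines (-0.54 and -0.58). Ddit3 shares 68 bases, or 4% of its exon bases, with Mars, which was lower too (-0.76 and -0.87). Atf5 shares 82 bases, 4.1%, with Nup62, whose H3.3WT libraries stood at 193.8 and 28 FPKM. Psph shares 452 bases, 10.4%, with Cct6a, and Slc7a7 shares 232, 7%, with Oxa1l.

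Of the stress effectors and feedback genes 4 of 5 (80%) fell in each line, where 21.5% and 17.8% of all genes fell in Cbfa2t2_KO and H3.3K27M. Trib3 (chromosome 2, 152337422 to 152344032, reverse strand), a pseudokinase that binds ATF4 and restrains it, had the largest log2 change of the whole set in both lines on the log2(FPKM + 1) scale. By the ratio of means it was the lowest in H3.3K27M, while in Cbfa2t2_KO Nupr1 (0.192 of the H3.3WT mean) and Cebpg (0.301) were lower. Its values were 240.1 and 261.6 FPKM in H3.3WT, 72.1 and 84 in Cbfa2t2_KO and 64.2 and 71.9 in H3.3K27M, with no overlap between H3.3WT and either line. It fell to 0.311 of the H3.3WT mean in Cbfa2t2_KO (log2 change -1.68 ± 0.14, adjusted p = 0.000435) and to 0.271 in H3.3K27M (log2 change -1.87 ± 0.17, adjusted p = 0.00105). Only 0.7% and 0.4% of all genes tested had a change as low in these comparisons.

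Chac1 (chromosome 2, 119351229 to 119354381, forward strand), which encodes an enzyme that degrades glutathione, had 131.0 and 123.4 FPKM in H3.3WT, 54.2 and 61.2 in Cbfa2t2_KO and 65.5 and 65.6 in H3.3K27M. The values within each group lay close together, and Chac1 fell in both lines (log2 change -1.13 ± 0.14, adjusted p = 0.00126, and log2 change -0.94 ± 0.16, adjusted p = 0.0053). Stc2, which encodes the secreted glycoprotein stanniocalcin, had 16.1 and 18 FPKM in H3.3WT, 4.76 and 8.06 in Cbfa2t2_KO and 9.7 and 7.98 in H3.3K27M and fell by 1.32 in Cbfa2t2_KO and 0.88 in H3.3K27M on the log2 scale (adjusted p = 0.00424 and 0.0107). Sesn2, whose product senses leucine and restrains the growth kinase complex mTORC1, had 88.8 and 86.6 FPKM in H3.3WT, 59.9 and 61.9 in Cbfa2t2_KO and 45.9 and 39.7 in H3.3K27M, the lowest in H3.3K27M. It fell in Cbfa2t2_KO (log2 change -0.52 ± 0.13, adjusted p = 0.0172) and in H3.3K27M (log2 change -1.02 ± 0.16, adjusted p = 0.00455).

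Vldlr, a lipoprotein receptor that ATF4 is known to raise, was the effector that passed in neither line (log2 change -0.27 ± 0.19, adjusted p = 0.301, and log2 change 0.27 ± 0.22, adjusted p = 0.378), with levels of 2.57 to 5.73 FPKM over all libraries. The Cbfa2t2_KO call of Sesn2 was lost without any 1 of the 4 libraries (adjusted p = 0.0604 to 0.0722) and with median-of-ratios scaling (0.0837). In H3.3K27M that of Stc2 was lost without H3.3WT replicate 1, H3.3WT replicate 2 or H3.3K27M replicate 2 (adjusted p = 0.0503, 0.0896 and 0.0536). Trib3 kept its call in both lines under each alternative tried. Chac1 did so except in H3.3K27M where a log2 change of at least 1 was required.

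**Figure D3:**
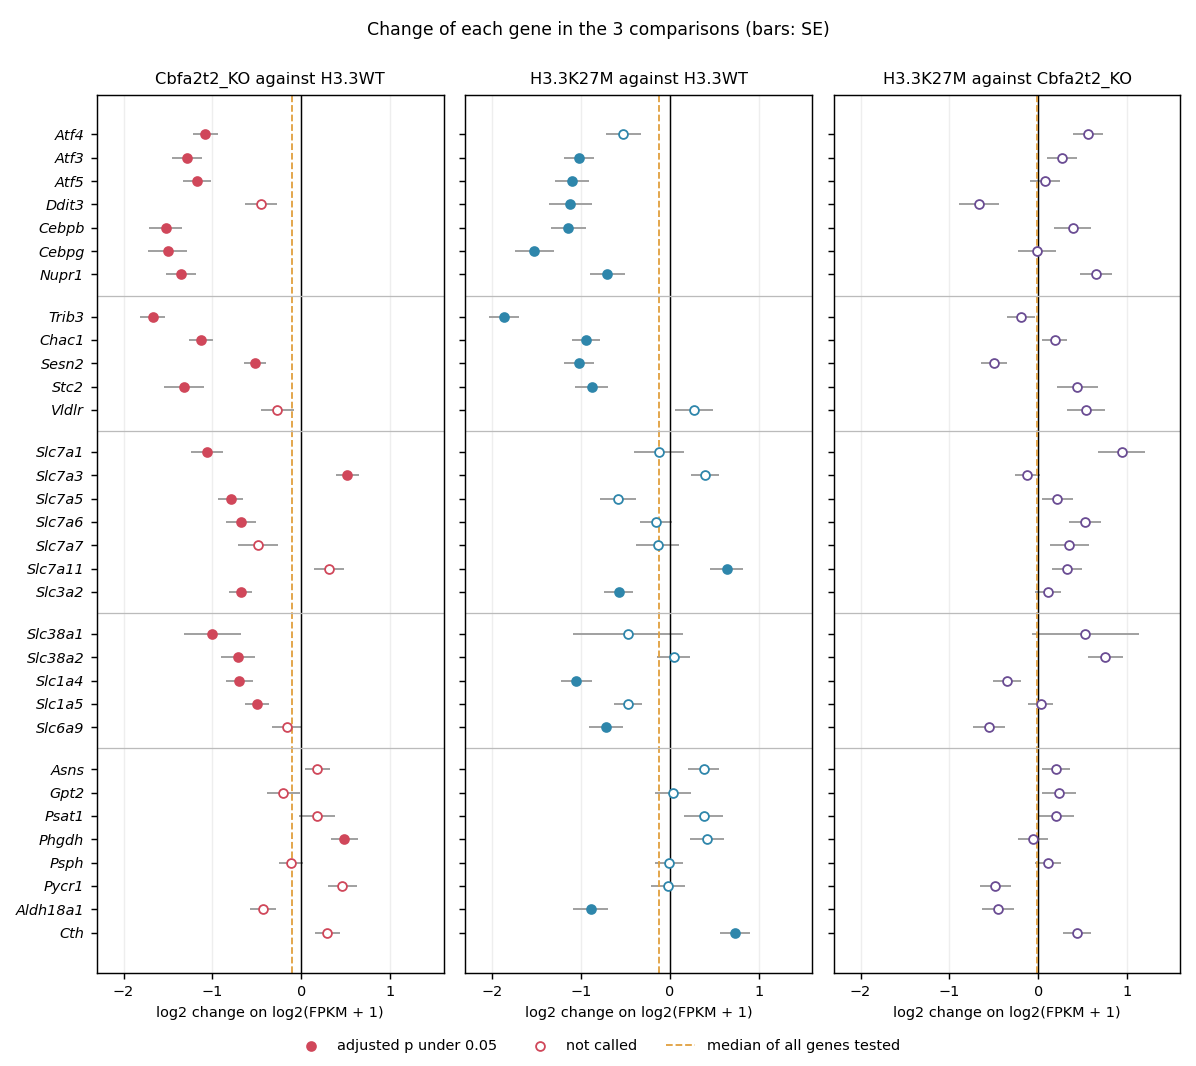
Log2 change on the log2(FPKM + 1) scale with its SE for the 32 genes in the 3 comparisons, filled where the adjusted p was under 0.05. The yellow dashed line is the median of all genes tested, -0.11, -0.12 and -0.02 from left to right. Filled points of the top 2 groups lie left of that line in the first 2 panels, and the third panel has no filled point.

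Among the transporters, the heteromeric exchangers are built from a light chain of the SLC7 family and the heavy chain 4F2hc, encoded by Slc3a2. Slc7a5, the light chain LAT1, which imports leucine and other large neutral amino acids, had 247.5 and 211.1 FPKM in H3.3WT, 130.6 and 131.7 in Cbfa2t2_KO and 174.1 and 133.4 in H3.3K27M. Slc3a2 had 185.2 and 191.0 FPKM in H3.3WT, 112.2 and 121.3 in Cbfa2t2_KO and 119.0 and 132.8 in H3.3K27M. Both genes were below the H3.3WT range in every library of the other lines. In Cbfa2t2_KO both fell, to 0.572 and 0.621 of the H3.3WT means (log2 change -0.80 ± 0.14, adjusted p = 0.0048, and log2 change -0.68 ± 0.13, adjusted p = 0.00657). In H3.3K27M Slc3a2 fell (log2 change -0.58 ± 0.17, adjusted p = 0.0369), and Slc7a5 did not pass (log2 change -0.58 ± 0.20, adjusted p = 0.0611) except after rescaling to TPM (adjusted p = 0.0282), after quantile normalization (0.0454), with robust eBayes (0.049), in a fit of all 6 libraries (0.0357) and without H3.3K27M replicate 1 (0.0294).

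Slc7a1, the cationic amino acid transporter CAT1, which takes up arginine and lysine, had 20.9 and 15.4 FPKM in H3.3WT, 8.46 and 7.73 in Cbfa2t2_KO and 22.3 and 12.1 in H3.3K27M. In Cbfa2t2_KO it fell (log2 change -1.06 ± 0.18, adjusted p = 0.00433), whereas the H3.3K27M values overlapped those of H3.3WT (log2 change -0.12 ± 0.28, adjusted p = 0.771). That small difference turned above 0 under 6 alternatives, from 0.02 with median-of-ratios scaling to 0.29 without H3.3K27M replicate 2. The difference between the lines was 0.94 ± 0.27 and did not pass (adjusted p = 0.0617), but it did without H3.3K27M replicate 2 (1.36, adjusted p = 0.0365), with median-of-ratios scaling (0.97, adjusted p = 0.0427) and with trends on GC content and length removed (1.09, adjusted p = 0.0154). Slc7a6, another light chain of 4F2hc, fell in Cbfa2t2_KO from 16.1 and 15.3 to 10.5 and 8.41 FPKM (log2 change -0.68 ± 0.17, adjusted p = 0.017). Its H3.3K27M values of 15.4 and 12.7 overlapped H3.3WT. Slc7a7, the y+LAT1 light chain, passed in neither line. Its H3.3WT libraries stood apart, at 57.6 and 34 FPKM, and without H3.3WT replicate 2 it passed in Cbfa2t2_KO (-0.86, adjusted p = 0.0127). It also passed there with trends on GC content, length and exon number removed (-0.71, adjusted p = 0.043).

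The remaining SLC7 genes had higher values in both lines. Slc7a3 (chromosome X, 101079210 to 101086020, reverse strand), the cationic transporter CAT3, had 36.8 and 37 FPKM in H3.3WT, 54.5 and 51.9 in Cbfa2t2_KO and 48.2 and 49.4 in H3.3K27M. Both lines were above H3.3WT without overlap, and Slc7a3 rose in Cbfa2t2_KO (log2 change 0.52 ± 0.13, adjusted p = 0.0188), while in H3.3K27M it did not pass (log2 change 0.39 ± 0.16, adjusted p = 0.0946) except with median-of-ratios scaling (adjusted p = 0.0478) or quantile normalization (0.0384). Slc7a11 (chromosome 3, 49892526 to 50443614, reverse strand), the cystine importer xCT and the member with 2 core matches before its start, had the lowest H3.3WT level of the set. Its values were 2.31 and 2.13 FPKM in H3.3WT, 2.84 and 3.17 in Cbfa2t2_KO and 3.83 and 4.21 in H3.3K27M, and H3.3K27M was the highest group. It rose in H3.3K27M (log2 change 0.64 ± 0.18, adjusted p = 0.035) and did not pass in Cbfa2t2_KO (log2 change 0.31 ± 0.17, adjusted p = 0.183).

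Several of these calls rested on all libraries being present. In Cbfa2t2_KO the call of Slc7a3 was lost without any 1 of the 4 (adjusted p = 0.0582 to 0.0829), and that of Slc7a6 without H3.3WT replicate 1, H3.3WT replicate 2 or Cbfa2t2_KO replicate 2 (0.0591, 0.0519 and 0.102). In H3.3K27M the call of Slc7a11 was lost without any 1 of the 4 (0.0528 to 0.173), and that of Slc3a2 without H3.3WT replicate 1, H3.3WT replicate 2 or H3.3K27M replicate 1 (0.164, 0.196 and 0.0676). Median-of-ratios scaling also ended the H3.3K27M call of Slc3a2 (adjusted p = 0.144), and rescaling to TPM or removing trends on GC content and length ended that of Slc7a11 (0.0874 and 0.0585). In Cbfa2t2_KO the call of Slc7a1 held under each alternative tried, and those of Slc7a5 and Slc3a2 held except where a log2 change of at least 1 was required. In all, 4 of the 7 genes (57.1%) fell and 1 (14.3%) rose in Cbfa2t2_KO, where 21.5% and 13.1% of all genes did. In H3.3K27M 1 (14.3%) fell and 1 (14.3%) rose, where 17.8% and 8.42% of all genes did.

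Neutral amino acid transporters were lower in Cbfa2t2_KO for 4 of 5 genes (80%) and in H3.3K27M for 2 of 5 (40%), where 21.5% and 17.8% of all genes were. Slc1a4, the alanine, serine and cysteine transporter ASCT1, had 105.0 and 85.1 FPKM in H3.3WT, 58.9 and 56.9 in Cbfa2t2_KO and 47.4 and 42.9 in H3.3K27M. It fell in both lines, to 0.61 and 0.475 of the H3.3WT mean (log2 change -0.70 ± 0.15, adjusted p = 0.00998, and log2 change -1.05 ± 0.18, adjusted p = 0.0051). Slc1a5, the glutamine transporter ASCT2, had 46.5 and 42 FPKM in H3.3WT, 30.6 and 31.3 in Cbfa2t2_KO and 31.1 and 32.2 in H3.3K27M. The values of the lines lay together below H3.3WT, and the fall passed in Cbfa2t2_KO (log2 change -0.50 ± 0.14, adjusted p = 0.0245) but not in H3.3K27M (log2 change -0.47 ± 0.16, adjusted p = 0.0609), where it did pass after rescaling to TPM (adjusted p = 0.0341) or in a fit of all 6 libraries (0.036).

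Slc38a2, the sodium-coupled transporter SNAT2, a classic gene of the amino acid response, had 58.9 and 71.9 FPKM in H3.3WT, 46.5 and 33.2 in Cbfa2t2_KO and 73.8 and 60.9 in H3.3K27M. It fell in Cbfa2t2_KO (log2 change -0.71 ± 0.19, adjusted p = 0.0226), and H3.3K27M overlapped H3.3WT (0.04 ± 0.18, adjusted p = 0.884). Its relative Slc38a1 varied most within groups, with 35.3 and 15.1 FPKM in H3.3WT, 11 and 11.2 in Cbfa2t2_KO and 36.2 and 7.19 in H3.3K27M. Its call in Cbfa2t2_KO (-1.0, adjusted p = 0.0456) went to -0.42 without H3.3WT replicate 1 (adjusted p = 0.143) and was lost without Cbfa2t2_KO replicate 1 or 2 (0.139 and 0.168). It was also lost under other alternatives, from eBayes without trend (0.0534) to a fit of all 6 libraries (0.23). In H3.3K27M its value was 0.12 without H3.3WT replicate 1, 0.62 without H3.3K27M replicate 2 and -1.56 without H3.3K27M replicate 1, the last with an adjusted p of 0.048. Slc6a9, the glycine transporter GlyT1, had 9.27 and 9.23 FPKM in H3.3WT, 7.38 and 8.94 in Cbfa2t2_KO and 5.81 and 4.69 in H3.3K27M and fell in H3.3K27M (log2 change -0.72 ± 0.19, adjusted p = 0.0254). It did not pass in Cbfa2t2_KO (log2 change -0.17 ± 0.17, adjusted p = 0.465), and its difference between the lines did not pass (adjusted p = 0.0888).

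Leaving out libraries ended other calls of this group. In Cbfa2t2_KO that of Slc1a5 was lost without any 1 of the 4 (adjusted p = 0.0502 to 0.0989) and with median-of-ratios scaling (0.1), that of Slc38a2 without either group's replicate 2 (0.108 without that of H3.3WT and 0.14 without that of Cbfa2t2_KO), and the call for Slc1a4 without Cbfa2t2_KO replicate 2 (0.0657). In H3.3K27M that of Slc6a9 was lost without H3.3WT replicate 1, H3.3WT replicate 2 or H3.3K27M replicate 2 (0.122, 0.126 and 0.0957) and with quantile normalization (0.0535). Slc6a9 shares 1429 exon bases, 27.8% of its own, with Ccdc24 on the other strand, which stood at 0.419 to 1.93 FPKM.

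The enzymes of amino acid synthesis mostly did not pass. None of the 8 fell in Cbfa2t2_KO, 1 (12.5%) rose and 7 did not pass, with a median of 0.18. In H3.3K27M 1 (12.5%) rose, 1 (12.5%) fell and 6 did not pass, with a median of 0.21. Of all genes 21.5% fell and 13.1% rose in Cbfa2t2_KO, and 17.8% and 8.42% in H3.3K27M. Asns, the asparagine synthetase gene whose element is shown above and which is a standard reporter of ATF4 activity, had 109.7 and 93.1 FPKM in H3.3WT, 111.3 and 117.8 in Cbfa2t2_KO and 123.5 and 140.7 in H3.3K27M. Its values were higher than in H3.3WT in both lines without overlap, by less than the test requires (log2 change 0.18 ± 0.14, adjusted p = 0.354, and log2 change 0.38 ± 0.18, adjusted p = 0.141). In Cbfa2t2_KO the sign turned with trends on GC content, length and exon number removed (-0.07).

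The serine pathway leads from a glycolytic intermediate to serine through Phgdh, Psat1 and Psph in turn. Phgdh (chromosome 3, 98313170 to 98339990, reverse strand) had 355.0 and 324.6 FPKM in H3.3WT, 438.3 and 513.5 in Cbfa2t2_KO and 432.5 and 476.8 in H3.3K27M. Both lines were above H3.3WT without overlap, and Phgdh rose in Cbfa2t2_KO (log2 change 0.48 ± 0.15, adjusted p = 0.0406) but not past the test in H3.3K27M (log2 change 0.42 ± 0.19, adjusted p = 0.129), where it did pass with trends on GC content and length removed (0.55, adjusted p = 0.0137) and with exon number removed too (0.37, adjusted p = 0.04). Its level is uncertain where reads are shared with the processed pseudogene Phgdh-ps1. Psat1 passed in neither line, with H3.3WT libraries at 204.9 and 137.3 FPKM and the others from 176.8 to 220.5. Psph stayed between 30.4 and 36 FPKM in all 6 libraries and passed in neither (log2 change -0.12 ± 0.14, adjusted p = 0.539, and log2 change -0.006 ± 0.16, adjusted p = 0.981).

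Proline is made from glutamate through Aldh18a1 and Pycr1, which differed from each other. Aldh18a1, the pyrroline-carboxylate synthase, had 103.7 and 83.6 FPKM in H3.3WT, 66.8 and 70.9 in Cbfa2t2_KO and 57.2 and 43.4 in H3.3K27M and fell in H3.3K27M (log2 change -0.89 ± 0.20, adjusted p = 0.014). In Cbfa2t2_KO its lower values did not overlap H3.3WT and did not pass (log2 change -0.43 ± 0.15, adjusted p = 0.056). Pycr1, the reductase of the last step, had 45.3 and 34.3 FPKM in H3.3WT, 52.7 and 56.8 in Cbfa2t2_KO and 42.7 and 35.3 in H3.3K27M. Its higher values in Cbfa2t2_KO did not pass either (log2 change 0.46 ± 0.16, adjusted p = 0.06), while H3.3K27M overlapped H3.3WT. Both genes were close to the threshold in Cbfa2t2_KO, and alternatives called them. Aldh18a1 was called lower under alternatives that include rescaling to TPM (adjusted p = 0.0331) and leaving out H3.3WT replicate 2 (0.0486). Pycr1 was called higher under others, among them median-of-ratios scaling (0.0271) and leaving out H3.3WT replicate 1 (0.0261).

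Cth, the cystathionine lyase that yields cysteine, had 62.8 and 67.8 FPKM in H3.3WT, 86.3 and 74.5 in Cbfa2t2_KO and 101.1 and 117.8 in H3.3K27M. The groups did not overlap, H3.3K27M was the highest, and Cth rose there (log2 change 0.73 ± 0.17, adjusted p = 0.0158) and did not pass in Cbfa2t2_KO (log2 change 0.29 ± 0.14, adjusted p = 0.137). Gpt2, the mitochondrial alanine transaminase, ranged from 13.8 to 19.6 FPKM and passed in neither line. The call of Phgdh in Cbfa2t2_KO was lost without H3.3WT replicate 1, H3.3WT replicate 2 or Cbfa2t2_KO replicate 2 (0.108, 0.224 and 0.173), with quantile normalization (0.29, adjusted p = 0.105), with eBayes without trend (0.0549), in a fit of all 6 libraries (0.0575) and with trends on GC content, length and exon number removed (0.24, adjusted p = 0.0644). In H3.3K27M the call of Cth was lost without H3.3WT replicate 1, H3.3WT replicate 2 or H3.3K27M replicate 2 (0.119, 0.0862 and 0.059) and with trends on GC content, length and exon number removed (0.22, adjusted p = 0.163), and that of Aldh18a1 without H3.3WT replicate 1 or H3.3K27M replicate 2 (0.111 and 0.0657).

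Set directly against each other in a fit of all 6 libraries, H3.3K27M and Cbfa2t2_KO differed past the test in none of the 32 genes by limma, where 7.8% of all genes were called, 3.12% higher and 4.68% lower. At an unadjusted p under 0.05, 12 of the 32 differed, 7 higher and 5 lower in H3.3K27M, where 28.7% of all genes did. The median of the 32 was 0.20, beside -0.02 over all genes. The members nearest to the threshold were Slc38a2 (log2 change 0.75 ± 0.20, adjusted p = 0.052), Nupr1 (log2 change 0.65 ± 0.18, adjusted p = 0.0589) and Slc7a1 (log2 change 0.94 ± 0.27, adjusted p = 0.0617), all higher in H3.3K27M, and Sesn2 (log2 change -0.50 ± 0.14, adjusted p = 0.0657), lower there. The value of Atf4 was 0.56 ± 0.17 higher in H3.3K27M (adjusted p = 0.0748), and that of Ddit3 0.67 lower (adjusted p = 0.0968). With trends on GC content and length removed, 5 members were called higher in H3.3K27M, namely Atf4, Cebpb, Nupr1, Slc38a2 and Slc7a1, and Ddit3 was called lower (adjusted p = 0.0154 to 0.0443). Among all 11589 genes then tested, 559 were called higher and 693 lower. Median-of-ratios scaling called 3 of these members higher and none lower. Among all 11577 genes it called 463 higher and 539 lower. A difference that misses the threshold with 2 libraries a group does not show that the lines were alike.

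The rest of the pathway was taken from lists of related genes, and these did not move one way. For reading their shares, 21.5% of all genes were lower and 13.1% higher in Cbfa2t2_KO, and 17.8% and 8.42% in H3.3K27M. Of 16 tested genes for eIF2 subunits, eIF2 kinases, the phosphatase regulators and eIF2B, 6 (37.5%) fell and 3 (18.8%) rose in Cbfa2t2_KO (median -0.30). In H3.3K27M 6 (37.5%) fell and 3 (18.8%) rose (median -0.22). Ppp1r15a, the stress-induced subunit that brings the phosphatase to eIF2 and is itself an ATF4 pathway target, had 35.2 and 38.6 FPKM in H3.3WT, 15.4 and 17.4 in Cbfa2t2_KO and 14.3 and 17.2 in H3.3K27M. It fell in both lines (-1.12, adjusted p = 0.00156, and -1.18, adjusted p = 0.00322), as did its constitutive relative Ppp1r15b (-1.28 and -0.82) and the eIF2B subunit genes Eif2b1 (-1.13 in each) and Eif2b2 (-0.98 and -1.04). Another eIF2B subunit gene, Eif2b3, rose in both lines (0.61 and 0.91), and Eif2b5 (0.43) and the eIF2 kinase gene Eif2ak3 (0.57) rose in Cbfa2t2_KO. Among the genes that rose in H3.3K27M was Impact, an inhibitor of the eIF2 kinase GCN2 (0.91, adjusted p = 0.0324), which did not pass in Cbfa2t2_KO (0.77, adjusted p = 0.0643). Eif2s2, the beta subunit of eIF2, fell in Cbfa2t2_KO (-1.13, adjusted p = 0.0105) and was higher in H3.3K27M than there (0.91, adjusted p = 0.048).

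Among 31 tested textbook ATF4 targets outside the 32 genes, 10 (32.3%) rose and 5 (16.1%) fell in Cbfa2t2_KO (median 0.11). In H3.3K27M 6 (19.4%) rose and 2 (6.45%) fell (median 0.03). Of all genes 13.1% rose and 21.5% fell in Cbfa2t2_KO, and 8.42% rose and 17.8% fell in H3.3K27M. In both lines these targets thus rose more often, and fell less often, than all genes. Hspa5, the chaperone BiP of the endoplasmic reticulum, which other branches of the unfolded protein response also raise, had 88.5 and 108.6 FPKM in H3.3WT, 283.8 and 229.7 in Cbfa2t2_KO and 228.6 and 239.4 in H3.3K27M. It rose in both lines (1.37, adjusted p = 0.00129, and 1.25, adjusted p = 0.00304). Pck2, the mitochondrial phosphoenolpyruvate carboxykinase, rose as well (1.28 and 1.06), and so did Ccng2, an atypical cyclin (1.24 and 1.33). Cebpd, another C/EBP factor, fell in both lines (-1.41 and -1.35). Eif4ebp1, a translational repressor that ATF4 is known to raise, fell in Cbfa2t2_KO (-1.01, adjusted p = 0.00195), did not pass in H3.3K27M (-0.26, adjusted p = 0.309) and differed between the lines (0.74, adjusted p = 0.0344). Jdp2, a bZIP repressor, fell in Cbfa2t2_KO as well (-0.89) and also differed between the lines (0.92, adjusted p = 0.0182). Nfe2l1, a factor that drives proteasome genes, fell in both (-0.45 and -1.30) and more in H3.3K27M (-0.85, adjusted p = 0.0386).

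Cytosolic aminoacyl-tRNA synthetases, many of them ATF4 targets, were divided as well. Of 20 tested, 5 (25%) fell and 4 (20%) rose in Cbfa2t2_KO (median 0.06) and 3 (15%) fell and 6 (30%) rose in H3.3K27M (median 0.07). Aars, the alanyl-tRNA synthetase, had 269.8 and 257.3 FPKM in H3.3WT, 97.4 and 104.1 in Cbfa2t2_KO and 112.8 and 97.5 in H3.3K27M. It fell in both lines (-1.38, adjusted p = 0.000711, and -1.32, adjusted p = 0.00223), together with Yars (-1.02 and -1.14), while Nars (0.90 and 0.74), Qars (0.94 and 0.56) and Rars (0.72 and 1.07) rose in both. Dars rose in H3.3K27M (1.41) and differed from Cbfa2t2_KO there (1.16, adjusted p = 0.0147).

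Of the amino acid transporters outside the set, 4 of 19 tested (21.1%) rose and 4 (21.1%) fell in Cbfa2t2_KO (median 0.03). In H3.3K27M 1 of 17 (5.88%) rose and 4 (23.5%) fell (median -0.18). Slc38a5, the glutamine transporter SNAT5, rose most, with 2.97 and 3.12 FPKM in H3.3WT, 15.7 and 18.5 in Cbfa2t2_KO and 9.21 and 8.51 in H3.3K27M. The groups did not overlap, and it rose in both lines, by 2.16 (adjusted p = 0.000366) and 1.28 (adjusted p = 0.00296), with a lower level in H3.3K27M than in Cbfa2t2_KO by the direct test (-0.87, adjusted p = 0.0244). Slc38a7, a lysosomal glutamine transporter, fell in both (-1.35 and -1.12). Among 26 tested genes of amino acid metabolism, 8 (30.8%) rose and 5 (19.2%) fell in Cbfa2t2_KO and 7 (26.9%) rose and 3 (11.5%) fell in H3.3K27M. Mat2a, which makes S-adenosylmethionine from methionine, fell in both lines (-1.80 and -1.16), with 96 and 97.3 FPKM in H3.3WT, 30 and 24.4 in Cbfa2t2_KO and 43.4 and 42 in H3.3K27M. Ahcy, the hydrolase that clears the product of methylation reactions, rose (1.18 and 1.21), as did Asl and Ass1 of arginine synthesis (1.31 and 0.94, and 0.87 and 1.10).

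**Figure D4:**
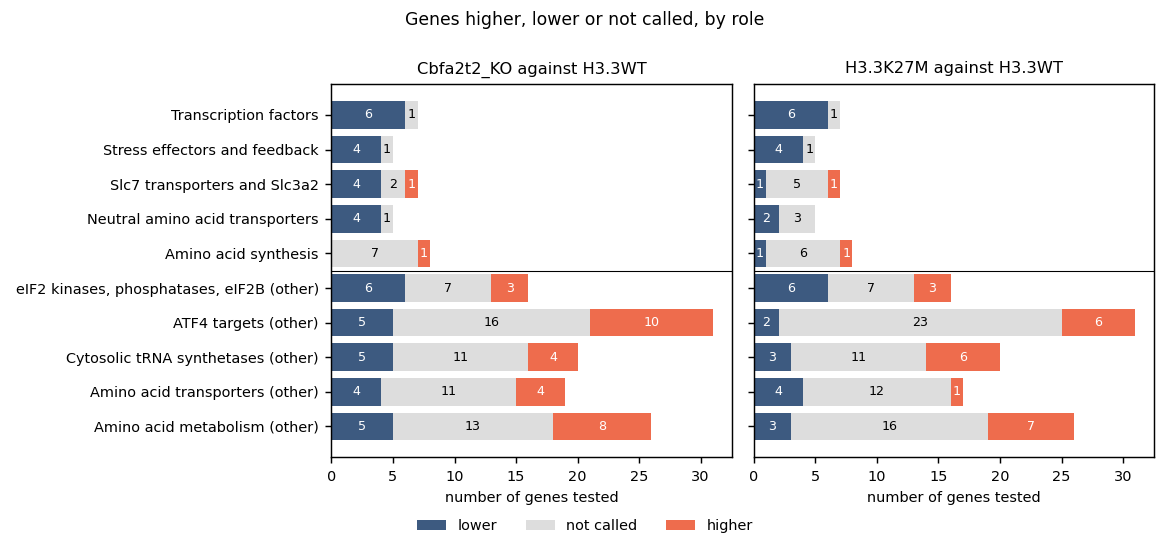
Number of tested genes that were lower (blue), not called (grey) or higher (orange) at an adjusted p under 0.05, by role, in Cbfa2t2_KO and in H3.3K27M against H3.3WT. Bars above the black line are the 5 role groups of the 32 genes, with 6 of 7 transcription factors lower in each line, and bars below it are related genes outside the set.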

How the data were processed

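Poly(A) RNA was sequenced from 6 libraries, 2 for each of 3 lines. Per the submitters' processing notes the tools were Trim Galore, HISAT2, StringTie and DESeq with GRCm38, with no version or role given. The authors deposited FPKM per gene in 2 tables, in which the H3.3WT values were identical. The columns of H3.3K27M are named only by the letter M. Neither table holds counts, so depth is unknown. The members and the gene lists were chosen with earlier results of these data known.

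From the deposited FPKM, log2(FPKM + 1) was fitted with limma 3.58.1 (R 4.3.3, eBayes with trend) for genes with a mean FPKM of at least 1. Contrasts against H3.3WT used the 4 libraries concerned, and H3.3K27M against Cbfa2t2_KO used all 6. P-values were adjusted by Benjamini-Hochberg over all genes tested, with a threshold of 0.05. All 32 members passed the filter. An exact permutation test of 2 against 2 cannot go below 0.333 (two-sided) and was not used. The fit was tested on simulated data. Gene positions, exons and overlaps came from GENCODE vM21, which held 14652 of the IDs, and promoters from RefSeq (GRCm38.p6). Alternatives covered the pseudocount, filter, scaling, variance model, libraries fitted, left-out libraries, removal of trends on GC content and length, and a minimum log2 change of 1. Genes of related lists were named where called, up to 4 per list and comparison by size of change. Further called genes were named for the eIF2 list and the cell type markers. Scripts ran in Python 3.11.15 with matplotlib 3.10.9.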

Additional observations from a re-analysis of the deposited data

How the results depend on the processing

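With 2 libraries a group and no counts, precision was limited by their number. No paired analysis was possible because the replicate numbers of the libraries carry no shared culture, batch or day in the labels. Where leaving out a library left 1 in a group, that library was assumed to vary like the other group. Without 1 library, the median change of the members was -0.62 to -0.52 in Cbfa2t2_KO and -0.55 to -0.43 in H3.3K27M. Over all genes it was -0.15 to -0.07 and -0.16 to -0.09. The totals of called genes that follow join both directions. The member counts beside them were therefore not compared with all genes. Leaving out 1 library gave 1915 to 3038 called genes in Cbfa2t2_KO against H3.3WT (4028 with all), with 0 to 1 higher and 12 to 16 lower members, and 1007 to 2790 in H3.3K27M against H3.3WT (3049 with all), with 0 to 1 higher and 7 to 13 lower. The count fell by over 1.5 times in Cbfa2t2_KO without H3.3WT replicate 2 (2236) or Cbfa2t2_KO replicate 2 (1915), and in H3.3K27M without H3.3WT replicate 1 (1206), H3.3WT replicate 2 (1007) or H3.3K27M replicate 2 (1589). Between H3.3K27M and Cbfa2t2_KO it ranged from 29 to 786 (905 with all), with 0 to 1 higher members, and was 29 and 162 without Cbfa2t2_KO replicate 2 and 1, 161 without H3.3K27M replicate 2, and 564 and 582 without H3.3WT replicate 1 and 2.

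A log2 change of at least 1 left 1073 genes with 0 higher and 11 lower members in Cbfa2t2_KO, 987 genes with 0 and 8 in H3.3K27M, and 232 genes between the lines, by construction. In Cbfa2t2_KO 1 member was higher with eBayes without trend and in a fit of all 6 libraries, and 1 in H3.3K27M at a mean of at least 5 FPKM, where Slc7a11 was not tested, and after rescaling to TPM. Between the lines, 472 genes were called after rescaling to TPM, 554 when only the 4 libraries were fitted, and 1397 with trends on GC content, length and exon number removed, an alternative chosen after seeing the data. Members higher in H3.3K27M than in Cbfa2t2_KO numbered 1 at a mean of at least 5 FPKM, 3 with median-of-ratios scaling, 1 with quantile normalization, 2 with robust eBayes, 5 with trends on GC content and length removed and 4 with exon number removed too, and 1 was lower under both of these trend removals. In the same order, 263 of 6939, 463 of 11577, 494 of 11601, 427 of 11601, 559 of 11589 and 630 of 11589 of all genes were higher. Under the trend removals 693 and 767 of all genes were lower. Apart from the construction of the fits, the cause was not tested. With the minimum log2 change of 1 set aside, calls held under each alternative that tested the gene for 12 of 18 lower and 0 of 2 higher members in Cbfa2t2_KO, and for 6 of 14 lower and 0 of 2 higher in H3.3K27M. Of the 12, Nupr1 was not tested at a mean of at least 5 FPKM. Of 1495 member fits, 45 changed sign, none of them called in either fit.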
